A study of Mus musculus with 10 samples.

Results

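Matrix metalloproteinases and their relatives were followed through the mouse organoid libraries. The genes were taken by symbol, as every row of the deposited table named *Timp*, *Mmp*, *Adam* or *Adamts* with a number (and, for *Mmp* and *Adam*, at most 1 further letter). This gave 70 of 39273 genes, of which 4 are *Timp*, 22 *Mmp*, 25 *Adam* and 19 *Adamts* genes. The libraries come from ureteric bud (UB) organoids grown in mouse UB culture medium and taken at day 5, 10 or 20, from collecting duct (CD) organoids and from adult mouse CD cells (adult mCD), with 2 libraries in each of the 5 groups.

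UB organoids are branching epithelial cultures of UB progenitor cells embedded in Matrigel, a basement membrane extract, so all organoids were surrounded by a supplied matrix. The labels give every sample the strain C57BL/6 x Swiss Webster, the genotype Wnt11-RFP +/- and an embryonic age, and call the adult cells organoids as well. The design text and the paper's methods instead describe adult mCD as Hoxb7-Venus cells sorted from kidneys of 2-month-old mice. Wnt11-RFP marks UB progenitor cells and Hoxb7-Venus marks UB-derived epithelium, and neither reporter is named after one of the 70 genes. An effect of the reporter on *Wnt11*, a progenitor marker given below, was not tested. CD organoids were made from UB organoids of day 10 in a CD differentiation medium that holds FGF9, Y27632, DAPT, PD0325901, aldosterone and vasopressin. By the paper's methods they stayed in it for further days, so they differ from day 10 in culture time as well as in medium. The number of UBs, embryos or adult animals behind each library is not given in the sources used here, so p-values measure only the spread between these libraries, which may be technical. That spread was estimated over all groups together, though it differed between them. Between replicates the chi-squared per gene, which also grows with depth, was 25.4 at day 10, 10.7 at day 5 and 2.72 to 4.97 in the other groups.

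MMPs are zinc endopeptidases that cut collagens, laminins and other matrix proteins, either after secretion or, for the membrane-type MMPs, at the cell surface. ADAMs are membrane proteases that release the outer part of growth factors, Notch and adhesion proteins, and ADAMTS are secreted relatives that cut proteoglycans, procollagens and other matrix proteins. TIMPs are small secreted inhibitors of MMPs, of which TIMP3 also inhibits several ADAMs and ADAMTS, and the balance of MMPs and TIMPs has long been studied in UB branching, during which the epithelium grows into surrounding matrix and mesenchyme.

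Total counts ranged from 22858971 to 24536676 at days 5 and 10 and from 11913613 to 16759872 in the other groups, and 3 counts, used as the limit of detection, were worth 0.109 to 0.241 CPM (counts per gene relative to the library total, as scaled by edgeR's TMM factors). Summed over the 4 Y-linked genes *Eif2s3y*, *Kdm5d*, *Uty* and *Ddx3y*, the level was 0.0408 to 0.875 CPM in the libraries of days 5 and 10 and 230 to 295 CPM in the other 6, so days 5 and 10 stand apart in donor sex as well as in depth. The libraries of day 20 and of CD organoids therefore do not come from the cultures sequenced at days 5 and 10, and genes described as rising or falling differ between separate cultures. The comparisons of day 20 and of CD organoids with day 10 cross this divide, and those of CD organoids with day 20 and with adult mCD do not. Of the marker lists, UB progenitor genes summed to 2072 to 3748 CPM in UB organoids and 364 to 385 CPM in CD organoids, and intercalated cell genes to at most 5.09 CPM in UB organoids and 1315 to 1410 CPM in CD organoids. Single progenitor genes went other ways than their sum. *Wnt11* stood at 192 and 109 CPM at day 10 and 19.2 and 22.7 at day 20. *Lhx1* stood at 15.3 and 7.73 CPM at day 10 and 0.485 and 1.85 at day 20, and both were called lower at day 20. *Sox9* stood at 256 and 259 CPM at day 20 and 234 and 256 in CD organoids. Principal cell genes summed to 53.3 to 159 CPM in UB organoids, 961 to 1140 CPM in CD organoids and 8114 to 8467 CPM in adult mCD, with calls for 4 of the 6 above day 10 in CD organoids, while *Avpr2* was at or under 3 counts in every organoid library. Adult mCD also carried 8397 to 10401 CPM of proximal tubule markers and 611 to 618 CPM of endothelial markers, for which the organoid libraries held at most 38.7 and 18.9 CPM.

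Tests covered genes with 10 or more counts over all libraries. Genes that differed more than 4-fold with an adjusted p no higher than 0.01 are referred to as called. Of the 70 genes, 58 were tested, and the 12 that were not had 1 to 9 counts in all. A mean of at least 5 CPM was reached by 23 genes at day 5, 25 at day 10, 26 at day 20, 17 in CD organoids and 21 in adult mCD. Across the 5 comparisons 32 of the 58 genes (55.2%) were called at least once, where 24.6% of all genes tested were.

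**Figure D1:**
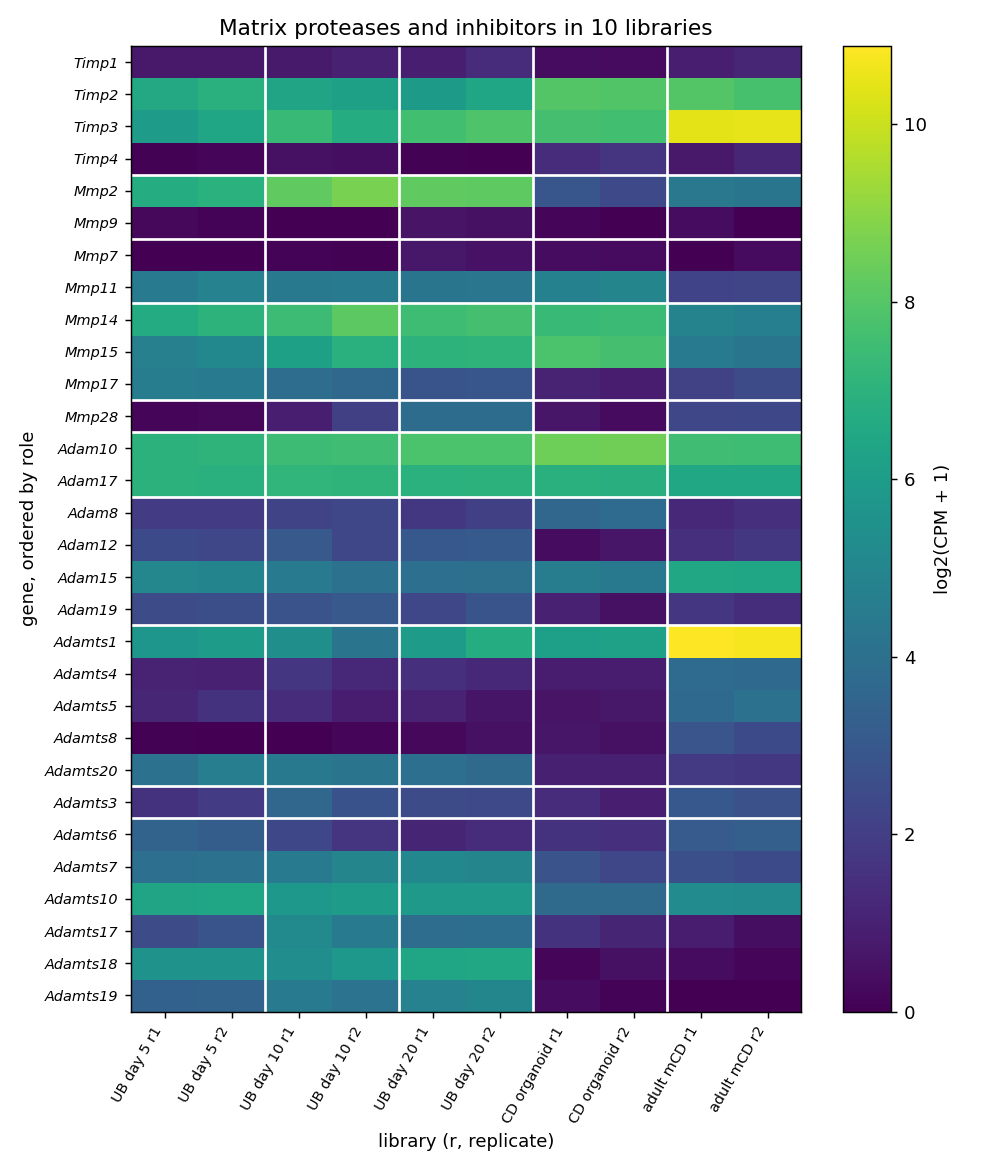
Levels of the 30 genes the text follows, as log2(CPM + 1) by colour, with libraries in columns (r, replicate) and genes in rows, where white lines part the groups and the roles. *Mmp2*, *Adamts18* and *Adamts19* are bright in UB organoids and dark in CD organoids, and *Timp3* and *Adamts1* are brightest in adult mCD.

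Most of the secreted MMPs whose names are best known were close to absent from every group. Of the genes clustered on chromosome 9 between 7272514 and 7699585 (GRCm38), 9 are members, and they include the interstitial collagenases *Mmp13*, *Mmp8* and *Mmp1a*, the stromelysins *Mmp3* and *Mmp10*, the metalloelastase *Mmp12* and the matrilysin *Mmp7*. All 9 together gave 113 counts over the 10 libraries, 52 of them in adult mCD, and no library held more than 14 counts of any of them. *Mmp13* had 11 and 14 counts in adult mCD and at most 1 elsewhere. *Mmp12* had 14 and 9 counts in adult mCD and at most 3 elsewhere. *Mmp7* reached 10 and 7 counts at day 20 and at most 4 in any other library. At this depth the remaining 6 genes could not be told from the limit of detection in more than 1 library each.

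**Figure D2:**
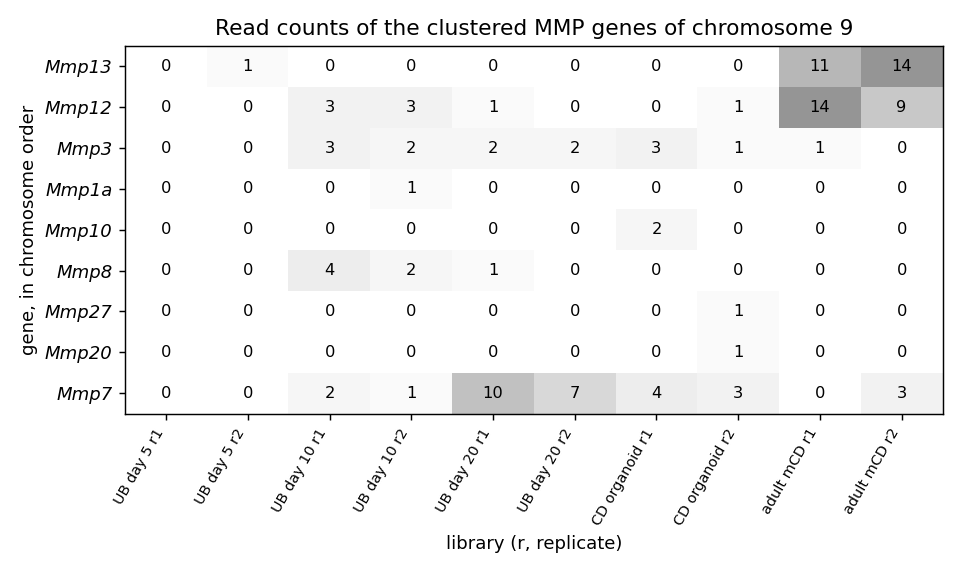
Read counts of the 9 clustered MMP genes of chromosome 9, with genes in chromosome order as rows, libraries as columns and the count printed in each field (darker, more counts). The highest count is 14, and most fields hold 0.

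The proximal promoters of this cluster are shown because they share a motif that the choice of genes did not use. The AP-1 element, through which growth factors and phorbol esters are known to induce collagenase and stromelysin genes, was searched as TGANTCA, a motif that reads the same on both strands, in the 250 bases before each RefSeq start of GRCm38.p6. It was found in 7 of the 9 clustered genes, and not in the windows of *Mmp8* and *Mmp27*. Windows were given for 44 of the 70 genes, some with several starts, and 9 of these 49 windows (18.4%) held the motif, against 6.75% of all 32851 windows. The other 2 were those of *Adam19* and *Adam29*. Below are the last 120 bases before the start, 5′ to 3′, with the AP-1 letters in capitals. They are followed by the same stretch of 3 abundant members of the other groups, which lacks these letters.
Mmp13, chr9:7272394-7272513 (+ strand): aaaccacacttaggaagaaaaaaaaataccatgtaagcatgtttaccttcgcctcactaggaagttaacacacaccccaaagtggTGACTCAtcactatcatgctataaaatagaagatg
Mmp3, chr9:7445702-7445821 (+ strand): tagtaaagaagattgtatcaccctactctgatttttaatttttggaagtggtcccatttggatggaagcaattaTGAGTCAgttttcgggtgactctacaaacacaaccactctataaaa
Mmp1a, chr9:7464021-7464140 (+ strand): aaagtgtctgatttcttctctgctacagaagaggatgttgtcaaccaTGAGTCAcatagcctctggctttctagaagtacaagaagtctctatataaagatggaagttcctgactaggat
Mmp10, chr9:7502222-7502341 (+ strand): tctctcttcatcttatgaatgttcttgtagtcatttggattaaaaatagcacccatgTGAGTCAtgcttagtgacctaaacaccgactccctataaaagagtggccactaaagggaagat
Mmp7, chr9:7691970-7692089 (+ strand): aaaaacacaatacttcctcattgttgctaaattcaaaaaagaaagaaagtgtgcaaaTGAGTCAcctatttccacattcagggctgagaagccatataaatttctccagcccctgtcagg
Mmp14, chr14:54431478-54431597 (+ strand): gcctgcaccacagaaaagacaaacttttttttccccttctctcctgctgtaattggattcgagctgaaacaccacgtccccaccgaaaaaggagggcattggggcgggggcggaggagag
Adamts1, chr16:85803114-85803233 (- strand): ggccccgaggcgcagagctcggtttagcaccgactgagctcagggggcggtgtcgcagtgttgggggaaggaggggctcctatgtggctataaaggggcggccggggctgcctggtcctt
Adamts18, chr8:113848840-113848959 (- strand): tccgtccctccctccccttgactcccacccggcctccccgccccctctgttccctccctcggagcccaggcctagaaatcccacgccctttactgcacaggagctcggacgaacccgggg
In the clustered genes the motif began 35 bases before the start in *Mmp13*, 46 in *Mmp3*, 63 in *Mmp10* and *Mmp7* and 73 in *Mmp1a*. The windows of *Mmp12* and *Mmp20* that also hold it are not printed. *Mmp12* holds it in its window at chr9:7347124-7347373. Its window at chr9:7344147-7344396, which is nearer the annotated start of the gene, does not hold it. The motif AGGAAG, read by ETS factors such as PEA3 (*Etv4*), lay on either strand in 18 of the 49 windows (36.7%), among them those of *Mmp14*, *Timp3* and *Adam10*, against 29.5% of all windows. A longer ETS motif, CCGGAAG on either strand, lay in the windows of *Adam15* and *Adam17* and in 6.91% of all windows. A match is a string of letters and not evidence of binding, and *Mmp2* had no window.

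Of the gelatinases, which cut denatured collagen and the collagen IV of basement membranes, *Mmp2* was the one that set UB organoids apart. *Mmp2* (chr8:92827291-92853420) stood at 107 and 122 CPM at day 5, 298 and 419 CPM at day 10 and 295 and 287 CPM at day 20. In CD organoids it stood at 6.48 and 4.25 CPM, and in adult mCD at 19.3 and 17.7 CPM. Every UB organoid library was thus above every library of the other groups. From day 10 to CD organoids *Mmp2* fell by 6.04 on the log2 scale (SE 0.19, adjusted p = 3.25e-11), and from day 20 to CD organoids it fell by 5.74 (SE 0.19, adjusted p = 7.57e-11). Against adult mCD the log2 difference of CD organoids was -1.76 (adjusted p = 1.08e-05), which is under 4-fold, and the log2 difference of day 10 from day 5 was 1.65 (adjusted p = 2.01e-06), also under 4-fold. Fibroblasts also express *Mmp2*, and the 6 stromal markers summed to 9.09 to 29.1 CPM in UB organoids and 125 and 239 CPM in CD organoids. Of these, *Col1a1*, *Col3a1*, *Pdgfra* and *Dcn* were called higher in CD organoids than at day 10 and at day 20. *Pdgfrb* stood at 4.84 and 4.45 CPM at day 10 and 3.27 and 1.68 CPM in CD organoids, and *Lum* at 1.09 and 1.32 CPM at day 20 and 0.498 and 0.321 CPM in CD organoids. The part of stromal cells in the *Mmp2* levels was not tested. *Mmp9*, the other gelatinase, had no counts at day 10 and at most 0.485 CPM in any library.

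The level of a gene against that of another was set per length. The scales were the RPKM the authors deposited and CPM per kilobase (kb) of merged exons. Both were used because the deposited lengths were a median of 1.68 times the merged exons among members and at most 5.16 times (*Adamts10*). On both scales *Mmp2* was the most abundant member at days 10 and 20, with a mean of 106 and 86.4 CPM per kb. At day 5 *Timp2* led by RPKM and *Mmp2* by CPM per kb. In CD organoids *Timp2* led by RPKM (56.8) and *Adam10* by CPM per kb (73.8). *Adamts1*, *Timp3* and *Timp2* were in this order the most abundant members of adult mCD on both scales, at 339, 173 and 58.5 CPM per kb.

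The membrane-type MMPs moved apart from one another. MMP14, which activates pro-MMP2 together with TIMP2, is encoded by *Mmp14* (chr14:54431612-54445364), which stood at 102 and 132 CPM at day 5, 175 and 278 at day 10, 179 and 200 at day 20, with 164 and 170 in CD organoids. Only adult mCD was far lower, at 28.6 and 25.2 CPM. *Mmp14* was called higher in CD organoids than in adult mCD, by 2.63 on the log2 scale (SE 0.19, adjusted p = 6.86e-08), and in no other comparison. Between CD organoids and day 20 its log2 difference was -0.18 (adjusted p = 0.439), so that *Mmp14* stayed within the spread of the UB organoid libraries where *Mmp2* did not.

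*Mmp15*, a further transmembrane MMP, stood at 26.1 and 32.7 CPM at day 5, 72.3 and 120 at day 10, 129 and 135 at day 20, 220 and 205 in CD organoids, and 20.5 and 17.8 in adult mCD. CD organoids were above all other libraries. *Mmp15* was called higher than in adult mCD by 3.47 (SE 0.20, adjusted p = 6.74e-09), while the log2 difference from day 10 was 1.14 (adjusted p = 7.95e-05) and that from day 20 was 0.68 (adjusted p = 0.00507), both under 4-fold. *Mmp17*, a GPI-anchored member, stood at 22.9 and 22.0 CPM at day 5 and 6.07 and 6.61 at day 20, and fell from day 10 to CD organoids by 3.64 (SE 0.23, adjusted p = 1.56e-08) and from day 20 by 2.63 (adjusted p = 9.85e-07). It was also called lower than in adult mCD, where it stood at 3.47 and 4.72 CPM, at a log2 difference of -2.00 that crosses 4-fold only narrowly, and this call was lost without replicate 2 of the CD organoids or of adult mCD. *Mmp16* fell between days 10 and 20, from 3.57 and 3.94 CPM to 0.546 and 0.727 CPM.

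*Mmp28* (epilysin, a secreted MMP of epithelia) was called in all 5 comparisons. It stood at 0.128 and 0.163 CPM at day 5, 0.872 and 3.14 at day 10, 13.3 in both libraries of day 20, 0.570 and 0.241 in CD organoids, and 3.99 and 4.17 in adult mCD. The libraries of day 10 lay far apart. *Mmp28* rose by 3.38 (SE 0.58, adjusted p = 0.00054) from day 5 to day 10 and by 2.68 (SE 0.38, adjusted p = 0.000154) from day 10 to day 20. It fell by 4.83 (SE 0.51, adjusted p = 3.31e-06) from day 20 to CD organoids. The call against day 10, at a log2 difference of -2.15 (adjusted p = 0.00702), was lost without replicate 2 of day 10, where the log2 difference was -0.96, and without either CD organoid library.

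*Mmp11*, stromelysin 3, which lies outside the cluster of chromosome 9, was the one abundant gene of its group. Its level was between 17.8 and 30.3 CPM in every organoid library and 3.54 and 3.77 CPM in adult mCD. CD organoids were higher than adult mCD by 2.95 (SE 0.17, adjusted p = 6.05e-09).

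**Figure D3:**
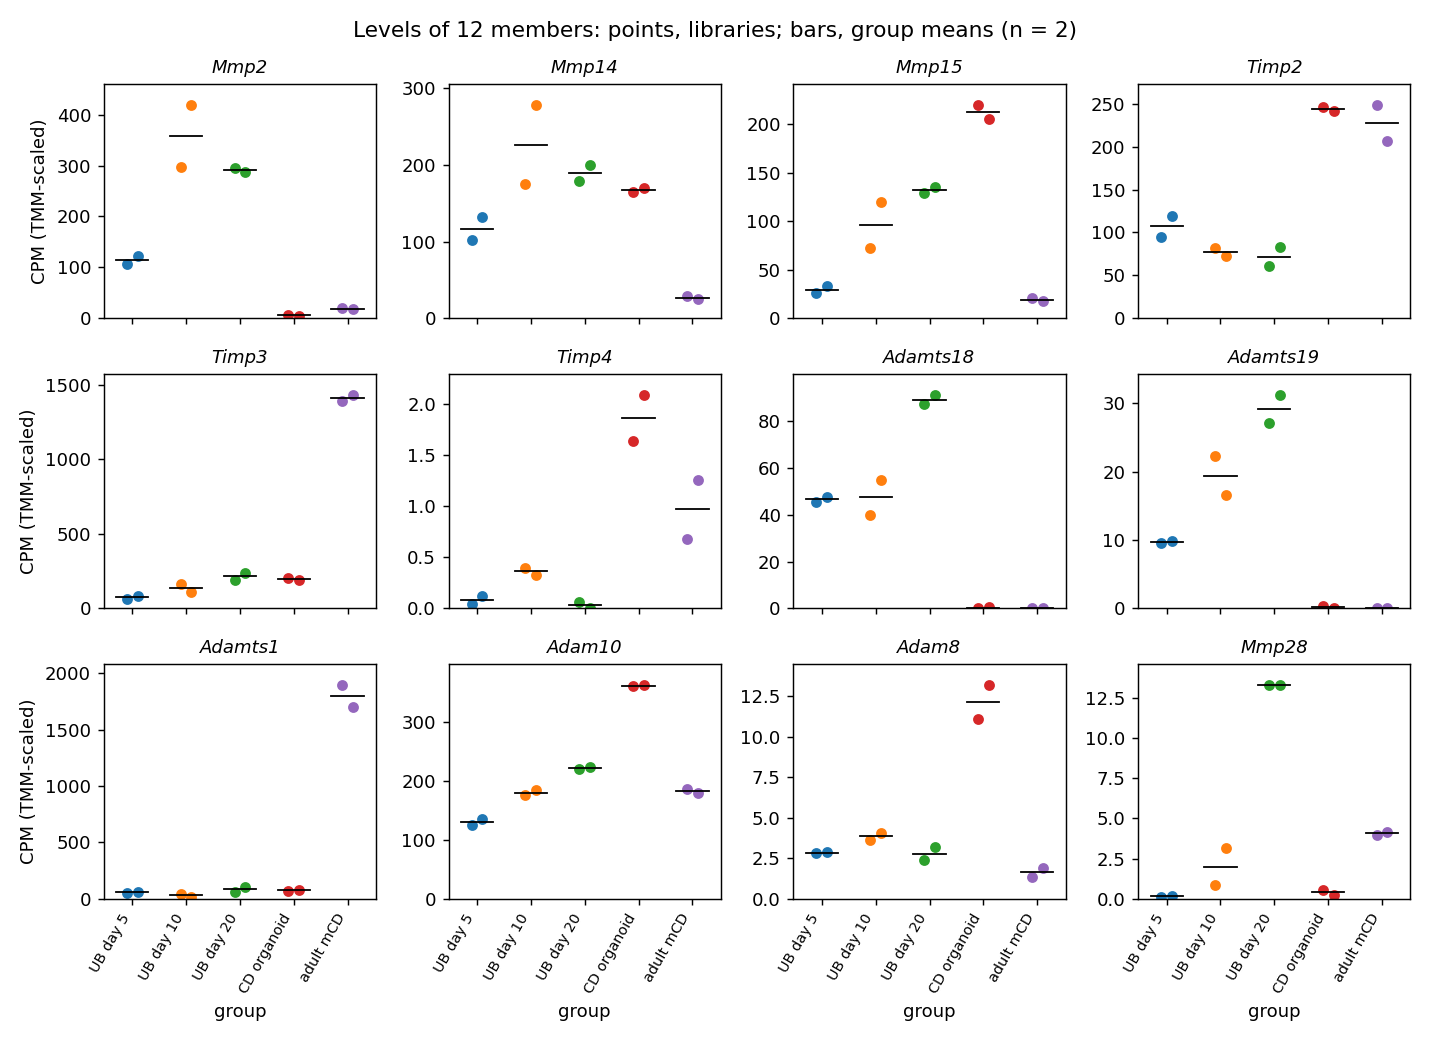
Levels of 12 members in CPM, with each group on the x axis, each library as a point and the mean of the 2 libraries as a bar, on linear axes that start at 0 and differ between panels. *Mmp2*, *Adamts18* and *Adamts19* are high in the 3 UB organoid groups only, *Mmp15*, *Timp4*, *Adam10* and *Adam8* are highest in CD organoids, and *Timp3* and *Adamts1* in adult mCD.

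The inhibitors went their own ways. *Timp2* (chr11:118301069-118355740), whose product inhibits MMPs and also takes part in the activation of pro-MMP2, stood at 94.7 and 120 CPM at day 5, 81.6 and 72.5 at day 10, then 60.8 and 83.1 at day 20. In CD organoids it stood at 247 and 242 CPM and in adult mCD at 249 and 207 CPM. CD organoids and adult mCD overlapped, and all UB organoid libraries lay below both. Its log2 difference between CD organoids and day 10 was 1.66 (SE 0.14, adjusted p = 3.21e-07) and that from day 20 was 1.77 (adjusted p = 2.56e-07), neither of which reached 4-fold.

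*Timp3* (chr10:86300372-86349506), which binds to the matrix and inhibits several ADAMs and ADAMTS as well as MMPs, stood at 63.3 and 84.3 CPM at day 5, 167 and 107 at day 10, 193 and 238 at day 20, 202 and 190 in CD organoids, and 1390 and 1431 in adult mCD. CD organoids lay within the range of UB organoids of day 20 or close to it, and their log2 difference from adult mCD was -2.85 (SE 0.18, adjusted p = 1.8e-08). *Timp3* is also expressed by endothelium, and the part that the endothelial markers of adult mCD have in this difference was not tested.

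*Timp4* was the only inhibitor called higher in CD organoids than at day 10 or day 20, though at low levels. It stood at 1.64 and 2.08 CPM in CD organoids, 0.396 and 0.328 at day 10, and 0.0607 and 0 at day 20. CD organoids were at least 9.39-fold higher than day 20, whose libraries were under the limit of detection (adjusted p = 4.5e-05). The call against day 10, at a log2 difference of 2.20 (adjusted p = 0.000858), was lost without replicate 2 of the CD organoids. *Timp1*, an inhibitor that many cells induce in inflammation, did not pass 1.59 CPM in any library. It was called lower in CD organoids, at 0.285 and 0.241 CPM, than at day 20, at 0.910 and 1.59 CPM, a call at 4.07-fold that was lost on leaving out replicate 2 of day 20 or either CD organoid library.

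Summed over each family, the balance of inhibitor to protease transcripts differed between the groups. The RPKM of the 4 *Timp* genes divided by that of the 22 *Mmp* genes was 0.707 and 0.760 at day 5, and 0.423 and 0.225 at day 10. Day 20 gave 0.361 and 0.458. The ratio was 1.25 in both CD organoid libraries, and 17.0 and 17.5 in adult mCD. Per kb of merged exons the ratios were lower in every library, at 0.161 to 0.532 in UB organoids, 1.08 and 1.07 in CD organoids, and 12.7 and 13.1 in adult mCD, and the groups kept the same order. With 2 libraries a group, no exact permutation p below 0.333 is possible, so these ratios are given without a test. *Mmp2* made up 57.4% of the *Mmp* sum at day 10 by RPKM, *Mmp15* 61.9% in CD organoids, and *Timp3* 74.8% of the *Timp* sum in adult mCD.

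**Figure D4:**
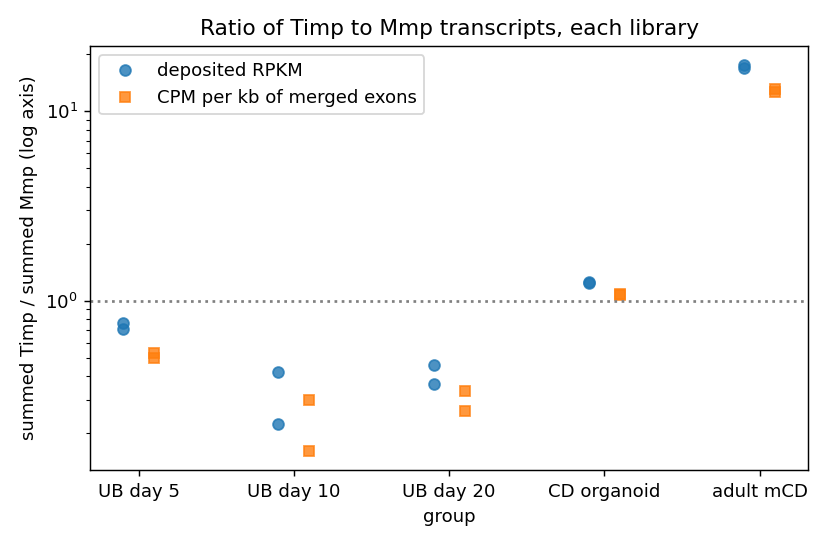
Summed *Timp* over summed *Mmp* transcripts in each library on a log axis, by deposited RPKM (circles) and by CPM per kb of merged exons (squares), with a dotted line at 1. All 6 UB organoid libraries lie below 1, the CD organoids between 1.07 and 1.25, and adult mCD between 12.7 and 17.5.

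*Adam10* and *Adam17* encode the sheddases that most cells carry. ADAM10 cuts Notch receptors and E-cadherin, and ADAM17 releases TNF and several EGF receptor ligands. *Adam10* stood at 126 and 135 CPM at day 5, 176 and 184 at day 10, 221 and 223 at day 20, 362 and 363 in CD organoids, and 186 and 180 in adult mCD. Its replicates were close, and CD organoids exceeded all other libraries, with log2 differences of 1.01 from day 10 (SE 0.07, adjusted p = 2.97e-08) and 0.98 from adult mCD (SE 0.07, adjusted p = 3.89e-08), short of 4-fold. The CD differentiation medium holds DAPT, an inhibitor of gamma-secretase, which acts on Notch after ADAM10. *Adam17* ranged only from 87.9 to 141 CPM over the 10 libraries.

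Other ADAMs with an active protease domain were called in both directions. *Adam12*, which is known from muscle and mesenchyme and cuts IGF-binding proteins, stood at 7.29 and 4.05 CPM at day 10, 6.98 and 7.47 at day 20 and 0.285 and 0.561 in CD organoids. It fell by 3.60 (SE 0.40, adjusted p = 3.89e-06) against day 10 and by 3.95 (SE 0.40, adjusted p = 1.86e-06) against day 20. *Adam19*, a shedder of neuregulins, fell by 3.10 (adjusted p = 4.91e-06) and 2.73 (adjusted p = 2.79e-05) in the same comparisons, from 5.91 and 7.11 CPM at day 10 to 0.997 and 0.401 CPM in CD organoids. *Adam8*, best known from leukocytes, moved the other way and stood at 2.37 to 4.05 CPM in UB organoids, 11.1 and 13.2 in CD organoids and 1.36 and 1.89 in adult mCD.

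The log2 difference of *Adam8* between CD organoids and adult mCD was 2.86 (SE 0.25, adjusted p = 3.31e-07). Against day 20 it was called at 2.11 (adjusted p = 3.16e-06), a call lost without replicate 1 of day 20 or replicate 2 of the CD organoids, and against day 10 its 3.12-fold difference was not called. The 6 leukocyte markers summed to 46.1 to 52.1 CPM in CD organoids and at most 13.9 CPM in UB organoids, most of it *Ptprc*, whereas *Adgre1*, *Csf1r*, *Cd3e* and *Itgam* were at or under 3 counts in both CD organoid libraries. In adult mCD, where *Adam8* was lowest, the 6 markers summed to 49.7 to 50.4 CPM. The part of leukocytes in the *Adam8* levels was not tested. *Adam15*, an ADAM of epithelium and endothelium, was called lower in CD organoids, at 22.6 and 20.4 CPM, than in adult mCD, at 91.4 and 85.5 CPM. Its 4.10-fold difference was lost as a call on leaving out either replicate 2 of the CD organoids or replicate 1 of adult mCD.

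The ADAMTS family held the most genes called lower in CD organoids than at day 10 or day 20. Of its 19 genes, all tested, 7 were called lower and 1 higher against day 10, and 6 lower and 1 higher against day 20. Among all genes 5.71% were lower and 4.96% higher against day 10, and 4.73% and 4.74% against day 20. *Adamts18*, which is known for roles in epithelial branching and in the eye, stood at 45.5 and 47.5 CPM at day 5, 40.0 and 54.8 at day 10, 87.1 and 90.9 at day 20, 0.142 and 0.401 in CD organoids, and 0.301 and 0.157 in adult mCD. *Adamts19*, a less studied member, stood at 9.56 and 9.92 CPM at day 5, 22.2 and 16.6 at day 10, 27.2 and 31.2 at day 20, 0.285 and 0.0802 in CD organoids, and had no counts in adult mCD. Both genes were thus at or near the limit of detection in CD organoids and adult mCD and well above it in each UB organoid library.

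*Adamts18* (chr8:113697126-113848738) fell by 7.22 (SE 0.27, adjusted p = 1.17e-10) from day 10 and by 8.13 (SE 0.26, adjusted p = 4.79e-11) from day 20 to CD organoids. *Adamts19* fell by 6.33 (SE 0.32, adjusted p = 5.32e-09) and by 6.91 (SE 0.32, adjusted p = 2.66e-09). Between CD organoids and adult mCD the log2 difference of *Adamts18* was 0.16 (adjusted p = 0.892) at 0.142 to 0.401 CPM, so that none could be detected at this depth.

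*Adamts17*, a member linked to fibrillin microfibrils, rose by 2.39 (SE 0.23, adjusted p = 6.03e-06) from 4.70 and 6.04 CPM at day 5 to 34.4 and 22.3 CPM at day 10. It then stood at 14.0 and 14.4 CPM at day 20 and fell by 4.06 (SE 0.29, adjusted p = 5.67e-08) from day 10 to CD organoids, at 2.06 and 1.20 CPM. *Adamts20*, which cuts versican, stood at 12.5 to 24.3 CPM in UB organoids and 0.926 and 0.962 in CD organoids, and fell by 4.25 (adjusted p = 1.62e-08) from day 10. *Adamts7*, a protease of COMP, fell by 2.34 (adjusted p = 5.08e-07) from 20.5 and 30.0 CPM at day 10 to 5.84 and 4.01 CPM. *Adamts10*, another gene of the fibrillin network, fell by 2.25 (SE 0.10, adjusted p = 5.5e-10) from 55.0 and 63.4 to 12.4 and 12.5 CPM.

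Each of these 4 genes was also called lower in CD organoids than at day 20, at log2 differences of -3.06 for *Adamts17*, -3.78 for *Adamts20*, -2.65 for *Adamts7* and -2.21 for *Adamts10*. The procollagen N-proteinases were split. *Adamts3* was called lower than at day 10 (log2 difference -2.64, adjusted p = 3.34e-05), and *Adamts2* was called higher, at 3.42 and 2.49 CPM in CD organoids against 0.317 and 0.109 at day 10 (log2 difference 3.51, adjusted p = 2.31e-05) and 0.121 and 0.264 at day 20 (log2 difference 3.63, adjusted p = 5.9e-05). *Adamts2* is expressed by fibroblasts, and 4 of the 6 stromal markers given above were also called higher in CD organoids, *Pdgfrb* and *Lum* being the exceptions. Their part in this difference was not tested.

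Over the whole set, 15 of the 58 tested genes (25.9%) were called between CD organoids and day 10, of which 3 were higher and 12 lower. The share called among all 24410 genes was 10.7%, with 4.96% higher and 5.71% lower. Against day 20, 16 genes (27.6%) were called, 4 higher and 12 lower, where 9.46% of all genes were, 4.74% higher and 4.73% lower. The median log2 difference of the 58 genes was -0.40 against day 10 and -0.03 against day 20, beside -0.15 and 0.00 over all genes, so the calls were of a part of the set and the others lay on both sides of 0. These comparisons share the CD organoid libraries and are not independent of each other.

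**Figure D5:**
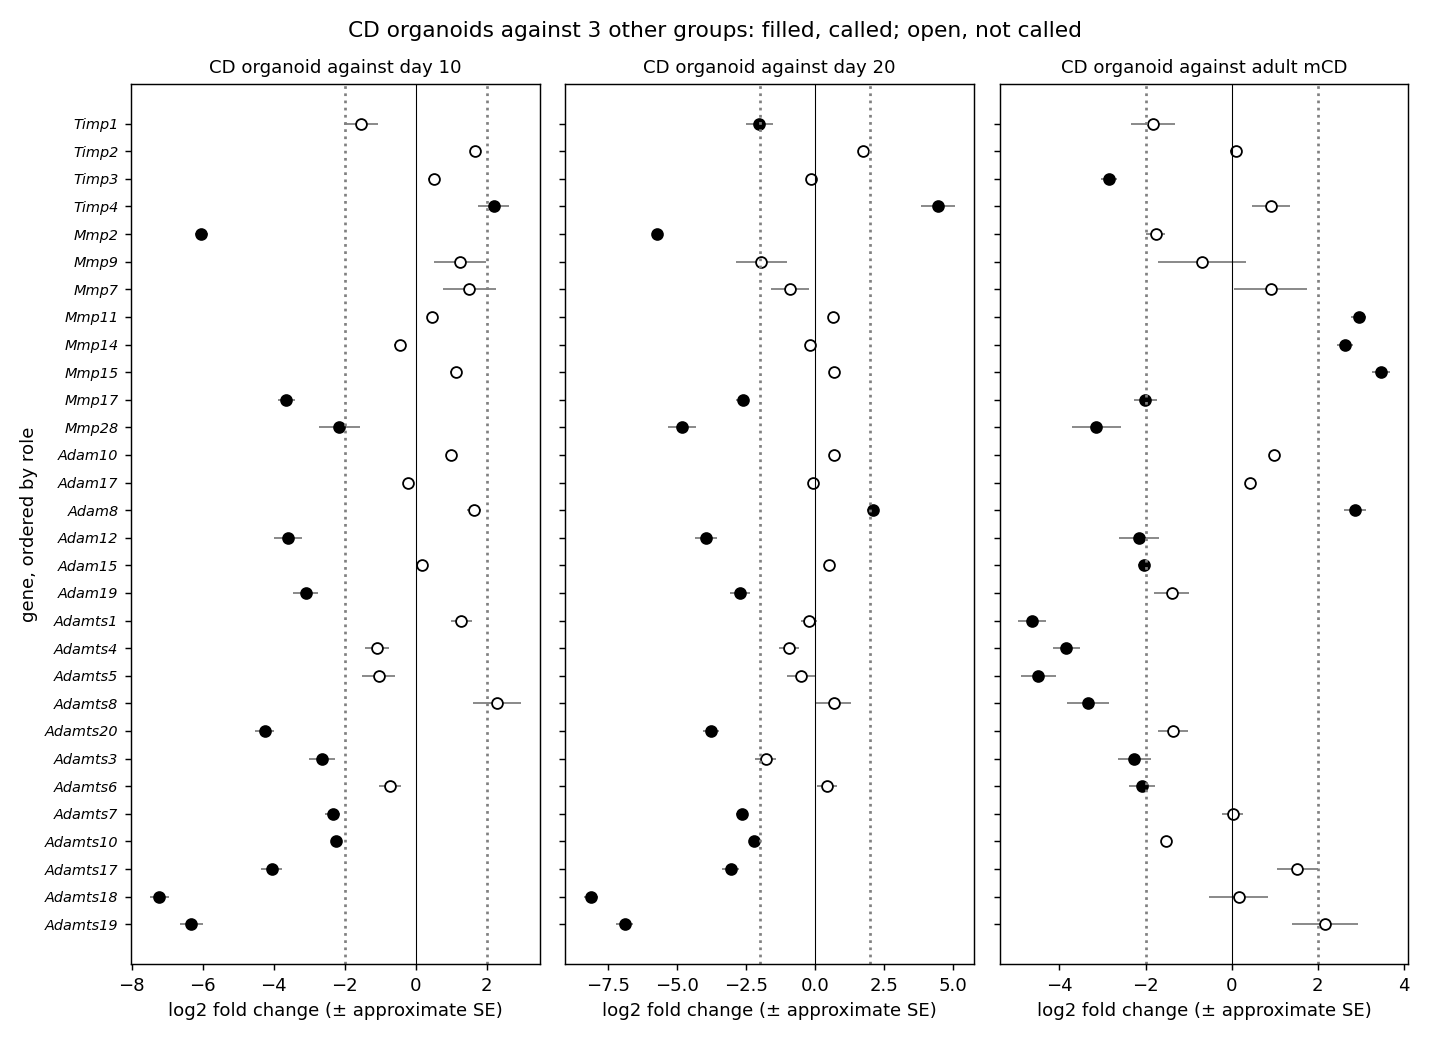
Log2 fold change of CD organoids against day 10, day 20 and adult mCD (x axes, with approximate SE as bars) for the 30 genes of the text, in order of role. Filled points were called, open points were not, and dotted lines mark 4-fold, and *Mmp2*, *Adamts18* and *Adamts19* lie farthest to the left against both UB organoid groups.

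Against adult mCD, *Mmp14* and *Mmp15* were higher in CD organoids and *Adamts1*, *Adamts4*, *Adamts5* and *Adamts8* lower. Of the 58 genes, 17 (29.3%) were called, with CD organoids above in 4 and below in 13, where the share among all genes was 14.3%, split into 4.5% and 9.84%. The 4 called higher were *Mmp11*, *Mmp14*, *Mmp15* and *Adam8*. With library totals in place of TMM factors, a scaling that moved the median log2 difference of all genes by 0.34, the calls were 5 higher and 8 lower.

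Proteoglycan-cleaving ADAMTS were the largest group among the genes that CD organoids held at lower levels than adult mCD did. *Adamts1* (chr16:85793827-85803113), which cuts versican and aggrecan and whose loss is known to disturb kidney and ureter development in mice, stood at 1891 and 1704 CPM in adult mCD. It stood at 52.0 and 63.1 CPM at day 5, 42.2 and 17.3 at day 10, 63.6 and 105 at day 20, whereas CD organoids had 70.4 and 74.7. All organoid libraries were far below adult mCD, and the log2 difference of CD organoids was -4.63 (SE 0.33, adjusted p = 4.44e-08). *Adamts1* made up 96.2% of the RPKM of all *Adamts* genes in adult mCD. *Adamts5*, its neighbour on chromosome 16 and the main aggrecanase of mouse cartilage, had a log2 difference of -4.49 from adult mCD (SE 0.41, adjusted p = 5.54e-07), at 0.498 and 0.642 against 12.3 and 15.6 CPM.

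*Adamts4*, a further aggrecanase, stood at 0.854 and 0.802 CPM in CD organoids and 13.1 and 12.0 CPM in adult mCD (log2 difference -3.84, adjusted p = 1.88e-07). *Adamts8* stood at 0.570 and 0.401 against 6.41 and 4.48 CPM (log2 difference -3.34, adjusted p = 4.97e-05). By contrast the related genes *Adamts9*, *Adamts15* and *Adamts20* were not called. *Adamts9* stood at 46.1 and 53.6 CPM in CD organoids and 27.2 and 20.8 in adult mCD, and *Adamts15* at 15.2 and 17.6 against 12.4 and 11.6. Both were thus higher in CD organoids, while *Adamts20* was lower, at 0.926 and 0.962 against 2.64 and 2.36 CPM. Of the other genes called lower, *Adamts6* (log2 difference -2.09, adjusted p = 5.4e-05) was not called with library totals, upper quartile factors or a prior count of 5. The call of *Adamts3* was lost without replicate 2 of the CD organoids, and that of *Adam12* without replicate 1 of the CD organoids or replicate 2 of adult mCD. *Mmp12* and *Mmp13* rest on the few counts given above, and their calls were lost without replicate 1 of the CD organoids, with *Mmp12* also lost without replicate 1 of adult mCD and *Mmp13* without replicate 2 of either group. The proximal tubule and endothelial markers of adult mCD move with all of these differences, and their part in them was not tested. Adult mCD cells were also sorted from kidneys, a step the methods do not describe for the sequenced organoids. Sorting therefore cannot be told apart from the group.

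Within UB organoids the set changed less. Between days 5 and 10, 2 of 58 genes (3.45%) were called, *Adamts17* and *Mmp28*, both higher, where 3.41% of all genes were called, 2.34% higher and 1.07% lower. Between days 10 and 20, 3 genes (5.17%) were called, *Mmp28* higher and *Adamts12* and *Mmp16* lower, where 3.39% were, 1.66% higher and 1.73% lower. These shares are near those of all genes. *Adamts12* was at 1.43 and 1.31 CPM at day 10 and at 0.364 and 0 at day 20, and its call was lost without replicate 2 of day 20. With no limit on the fold and an adjusted p up to 0.05, 25 of 58 genes (43.1%) passed between days 5 and 10, 17 higher and 8 lower, and 22 (37.9%) between days 10 and 20, beside 32.6% and 29.0% of all genes. By the same looser rule 36 genes (62.1%) differed between CD organoids and day 10, 32 (55.2%) between CD organoids and day 20 and again 32 (55.2%) between CD organoids and adult mCD, beside 47.2%, 42.2% and 49.8% of all genes.

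Of the 26 tested genes never called, 9 reached a mean of 5 CPM in some group and 17 did not. Besides *Timp2*, *Adam10* and *Adam17* these 9 are *Adam9*, *Adam11*, *Adam22*, *Adamts9*, *Adamts15* and *Adamts16*, which are named after their values were seen. *Adam9*, a broadly expressed ADAM, was at 139 to 144 CPM in CD organoids and adult mCD and at 55.8 to 89.4 CPM in UB organoids. *Adam22*, which lacks protease activity and serves as a receptor of LGI proteins, was at 13.6 and 11.1 CPM in CD organoids and 16.6 to 37.3 CPM elsewhere. *Adamts15* was at 15.2 and 17.6 CPM in CD organoids, 12.4 and 11.6 in adult mCD, and at most 5.62 in UB organoids. A further 7 genes were called with all group means compared under 5 CPM, namely *Adam4*, *Adam33*, *Adamts2*, *Adamts12*, *Mmp12*, *Mmp13* and *Mmp16*. *Adam4*, a gene of the testis, was called higher in CD organoids than at day 10 and *Adam33* higher than at day 20, at log2 differences of 2.29 (adjusted p = 0.00365) and 2.34 (adjusted p = 0.00697). The call of *Adam4* was lost without replicate 2 of day 10 or of the CD organoids, and that of *Adam33* without any 1 of the 4 libraries compared.

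Genes that work with these proteases were described from lists. Plasmin is an activator of several pro-MMPs, and of the plasminogen activation list of 8 genes, 7 were in the table and 6 were tested. *Plau*, the urokinase gene, stood at 7.18 and 8.13 CPM at day 10, 12.1 and 17.1 at day 20, 56.9 and 45.9 in CD organoids, and 857 and 860 in adult mCD. It rose by 2.74 (adjusted p = 1.8e-08) from day 10 to CD organoids, whose log2 difference from adult mCD was -4.06 (adjusted p = 1.5e-10). *Plaur*, its receptor, rose at both steps of UB organoid culture, from 0.683 and 0.612 CPM at day 5 to 84.0 and 86.1 CPM at day 20, and its call between days 10 and 20 was lost without replicate 1 of day 10, at a log2 difference of 1.79. *Serpine2*, protease nexin 1, was called lower in CD organoids than at day 10. In all, 2 genes of this list were called higher and 1 lower against day 10, and 4 lower and 0 higher against adult mCD. For this list and those that follow, the shares among all genes were 4.96% higher and 5.71% lower against day 10, and 4.5% and 9.84% against adult mCD, and with 4 to 17 genes a list a single call is too little to be read against them.

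Among the 17 regulators of MMP and ADAM activity, 2 were called higher in CD organoids than at day 10 and 2 lower. *A2m*, a broad protease trap, was at 18.7 and 9.46 CPM in CD organoids and 0.396 and 0.0365 at day 10, and *Tspan17*, a tetraspanin partner of ADAM10, at 9.97 and 10.8 against 1.82 and 1.24 CPM. The 2 lower were *Spock2*, at 9.97 and 6.82 against 47.3 and 26.1 CPM, and *Tfpi2*, at 0 in both CD organoid libraries against 0.476 and 0.656 CPM. *Tspan5*, a further tetraspanin gene, was at 4.27 and 4.25 against 14.0 and 14.1 CPM and was not called against day 10. *Reck*, a membrane inhibitor of MMPs, was called in none of the comparisons and stood at 22.9 and 22.2 CPM at day 5 and 6.69 and 5.13 CPM in CD organoids. Of 15 tested genes among other matrix and membrane proteases, 3 were higher and 0 lower against day 10, and *Mme* (neprilysin) was the most abundant of these at 726 and 684 CPM. Of 6 *Adamts*-like genes, which lack the protease domain, 1 was called higher and 1 lower against day 10, the latter being *Adamtsl1* at 1.28 and 0.401 CPM against 43.1 and 36.6 CPM.

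Substrates were called as well. Of the 7 EGF-family ligands that ADAMs shed, 6 were tested, and CD organoids were above day 10 in 2 of them and below it in 0 by the same call. *Btc*, betacellulin, stood at 11.4 and 11.6 CPM at day 10, 8.56 and 8.66 CPM at day 20, 65.4 and 68.7 CPM in CD organoids and 287 and 256 CPM in adult mCD, with log2 differences of CD organoids of 2.53 from day 10 (adjusted p = 2e-10) and 2.95 from day 20 (adjusted p = 1.7e-10). *Hbegf* rose by 3.78 (adjusted p = 3.6e-09) from 9.83 and 8.97 CPM at day 10 to 110 and 149 CPM at day 20. It stood at 36.6 and 42.3 CPM in CD organoids, a call against day 10 that was lost without replicate 2 of the CD organoids (log2 difference 1.97), and at 1146 and 996 CPM in adult mCD. *Vcan*, the versican that ADAMTS1, ADAMTS5 and ADAMTS20 cut, stood at 15.8 and 21.6 CPM at day 5, 152 and 228 at day 10, 314 and 292 at day 20, 96.3 and 89.9 in CD organoids, and 3.17 and 1.49 in adult mCD. Between CD organoids and adult mCD *Vcan* was called higher by 5.28 (adjusted p = 2.2e-09), and *Adamts1* was called lower. A link between these transcripts was not tested. Of the 4 proteoglycans tested, *Ncan*, neurocan, was the one called between CD organoids and day 10 or day 20, at 1.86 and 1.35 CPM at day 10, 3.46 and 4.23 CPM at day 20 and 0.142 and 0 CPM in CD organoids, which were thus at or under 3 counts.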

How the data were processed

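The authors deposited counts per gene, which their methods derive in Partek Flow with STAR, mm10, GENCODE M24 and Partek's E/M model. Such a model can divide reads with several possible origins, which would make values of closely related genes uncertain, and whether it was applied to these whole-number counts was not tested. The submitters' processing notes also name FastQC 0.11.8, cutadapt 2.5, Trimmomatic 0.36 and edgeR 3.28.1. The deposited RPKM values divide the counts by a library total, a composition factor and the length column, and a further deposited signal, the scaled counts named TMM, was only checked. For RNA and libraries the labels name RNeasy and TruSeq kits, and the paper Direct-zol and KAPA stranded kits.

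Here the counts of all 10 libraries were fitted as 5 group means in R 4.3.3 by edgeR 4.0.16, whose TMM factors and quasi-likelihood test were used at a prior count of 1. P-values were adjusted by Benjamini-Hochberg over 24410 genes. SE are approximate, derived from the test statistic. Fold changes against a group at or under 3 counts per library are lower bounds for counting error only, since reads carry no molecular identifiers. Positions and merged exons come from GENCODE M21, and windows from RefSeq. On simulated data of CD organoids against day 10, 200 of 200 genes changed 8-fold were recovered among 24240 genes, with 0 false calls. Only genes with ample counts were changed, and every gene was given the same dispersion of 0.0083. The simulation therefore cannot tell how changes near 4-fold, genes with few counts or groups of unequal spread fare.

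Followed by name were members called at least once with a mean of at least 5 CPM in a group compared, and 11 genes whatever their values. Members and lists were chosen with earlier results of these data known. Alternatives changed the prior count, filter, scaling, test (DESeq2 1.42.0), threshold, libraries and replicate block, and left out each library. The 2 per-length alternatives were chosen after seeing the data. Figures were drawn with matplotlib 3.10.9. Values of 1 gene of the plasminogen activation list are not reported here.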

Additional observations from a re-analysis of the deposited data

How the results depend on the processing

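The number of members called depended mostly on the threshold. At an adjusted p up to 0.05 with no limit on the fold it was 25 between days 10 and 5, 22 between days 20 and 10, and 36, 32 and 32 for CD organoids against day 10, day 20 and adult mCD, and with more than 2-fold it was 11, 14, 31, 26 and 29. Between days 10 and 5 it was 1 with only the 4 libraries compared, where *Mmp28* was lost. Between days 20 and 10 it was 7 without a filter on low counts. Leaving out each library in turn gave 2 to 5, 2 to 4, 13 to 16, 13 to 15 and 13 to 16 calls in the same order, and the 5 were reached without replicate 1 of day 10. The split between days 20 and 10 was 2 higher and 2 lower with RLE size factors or library totals. With library totals the median of all genes moved by 0.14 between days 10 and 5, and with upper quartile factors by 0.11 between CD organoids and adult mCD.

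The differences whose sign turned were not called. With library totals *Adamts20* was 0.060 between days 10 and 5. Between days 20 and 10 *Adamts10* was 0.0097 with the filterByExpr filter, 0.0092 with RLE size factors and DESeq2 and 0.023 with only the 4 libraries, and between CD organoids and adult mCD *Adamts7* was -0.029 with RLE size factors and -0.032 with DESeq2. With 1 library left out, log2 differences between days 10 and 5 ran from -0.076 to 0.76 (*Adam12*), -0.23 to 0.23 (*Adamts18*), -0.35 to 0.25 (*Adamts20*), -0.45 to 1.09 (*Adamts8*) and -0.39 to 0.013 (*Mmp11*). Between days 20 and 10 they ran from -0.11 to 0.10 (*Adamts10*), -0.45 to 0.30 (*Adamts4*), -0.53 to 0.14 (*Mmp14*) and -0.34 to 0.13 (*Timp2*). Against day 10 CD organoids ran from -0.010 to 0.41 (*Adam15*), against day 20 from -0.54 to 0.19 (*Adamts1*), -0.89 to 0.084 (*Adamts5*) and -0.29 to 0.019 (*Timp3*), and against adult mCD from -0.55 to 0.68 (*Adamts18*), -0.28 to 0.24 (*Adamts7*), -1.97 to 1.28 (*Mmp9*) and -0.044 to 0.27 (*Timp2*). The causes were not tested. Over all log2 differences of named members and called list genes, each under every alternative, 2668 kept direction and side of the threshold, 119 lost and 18 gained a call, and 29 turned sign.

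Replicate numbers did not pair the libraries. The correlation of same-numbered deviations lay between -0.258 and 0.0842 over 10 pairs of groups, and 2 of 10 libraries correlated best with their own number. Both were those of day 5, since the deviations of 2 replicates from their mean mirror each other. A replicate block gave 2, 4, 15, 17 and 17 calls, where the fits without it gave 2, 3, 15, 16 and 17. With 2 libraries a group, calls of genes with few counts, such as *Timp1*, *Adam33* and *Mmp13*, were lost with single libraries left out.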
